A study of Bos taurus and Bubalus bubalis with 9 samples.

Results

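The 6 genes described here are ACTN3, ATP2A1, MYBPC2, MYLPF, TNNI2 and TNNT3, which encode contractile and calcium-handling proteins of fast-twitch skeletal muscle fibres. They were chosen by name for this, with earlier results of these data known. Their transcripts were taken from the study's lists of mRNAs called different between buffalo and cattle muscle. All 6 were found in the buffalo mRNA table of 19917 transcripts, with 1 named transcript each except TNNT3, which has 5. They were hosts of 2 of 4737 circular RNAs (circRNAs) detected in buffalo muscle and of 9 of 18535 listed for cattle. The study asked how muscle and fat differ between a bovine with little intramuscular fat (IMF) and one with more. The samples used here are longissimus dorsi muscle from 3 Xinyang buffalo, which the labels call low IMF, and 2 tissues from 3 Nanyang cattle, which the labels call high IMF. The cattle tissues are longissimus dorsi muscle and subcutaneous back fat. The study also took back fat of buffalo, which was not analysed here. Weaning took place at month 3, castration at month 6, the start of fattening at month 18 and slaughter at month 30 in all animals. Buffalo and cattle were kept on separate farms, so species and farm cannot be told apart. Each group held 3 libraries, and a library is named here by its group and number (buffalo 1 is the first buffalo muscle library).

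A muscle shortens when calcium leaves the sarcoplasmic reticulum, binds the troponin complex on the thin filament and lets myosin pull on actin. Fast and slow fibres build the same machine from different gene copies. TNNI2 and TNNT3 encode the fast inhibitory and tropomyosin-binding subunits of troponin, MYLPF encodes the fast regulatory light chain of myosin, and MYBPC2 encodes the fast myosin-binding protein C of the thick filament. ACTN3 encodes the alpha-actinin of fast fibres, which cross-links actin at the Z-disc. ATP2A1 encodes SERCA1, the pump that returns calcium to the reticulum of fast fibres. The slow counterparts are TNNI1, TNNT1, MYL2, MYBPC1 and ATP2A2, whereas ACTN2, the counterpart of ACTN3, is made in all fibre types. MYBPC1 is the slow-type myosin-binding protein C by name but is also made in fast fibres. Back-splicing joins the end of an exon to the start of an earlier one and gives a closed RNA circle, which is seen in sequencing as a junction read. In the cattle reference ARS-UCD2.0, TNNT3 and TNNI2 lie close together with PRR33 and LSP1 between them, ACTN3 lies on the same chromosome as both, and ATP2A1 and MYLPF, which has the symbol MYL11 there, share another chromosome.

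The mRNA values cover the 3 buffalo muscle libraries alone, and mRNA of the cattle tissues was not analysed here. The values are FPKM (fragments scaled by transcript length and by library depth), so that levels of different transcripts can be set side by side, and log2 values are log2(FPKM + 1). Buffalo reads were placed on the cattle genome, so a level may also depend on how well a gene's reads match there, which was not tested. The FPKM values summed to 1187000, 1000420 and 991636 in buffalo 1, 2 and 3 and give no depth of their own. The unit of the circRNA values corresponds to library totals of 6.00e+07 to 6.58e+07 reads in the same 3 libraries. Junction reads of circRNAs numbered 4472 to 6122 in buffalo muscle, 15440 to 27141 in cattle muscle and 12042 to 21053 in cattle adipose. Muscle identity was checked by marker genes. ACTA1, the skeletal muscle actin, was the highest listed transcript of the shared sarcomere genes with 42565, 31050 and 38758 FPKM. Of a list of 10 adipocyte genes, 9 were measured, which here means that a transcript carried the gene's name. They summed to 157, 221 and 203 FPKM, from LPL, a lipase also made by muscle, at 92.0, 129 and 98.1 FPKM down to PCK1 at 0.0311, 0.224 and 0.579 FPKM. None of these 9 was listed at 0. In whole tissue, fewer fibres of a type and less RNA per fibre cannot be told apart.

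All 6 fast fibre genes were among the most abundant mRNAs of buffalo muscle. Together they held 3.67%, 3.59% and 4.36% of the FPKM sum of buffalo 1, 2 and 3. Their ranks by mean log2 level ran from 6 for MYLPF to 81 for TNNT3. Within single libraries they lay between percentile 99.26 (TNNT3 in buffalo 2) and percentile 99.97 (MYLPF in buffalo 3) of the 12618 transcripts with a mean of at least 1 FPKM. The median over the 6 genes was 11.28 ± 0.16 on the log2 scale (SD, n = 3), against 1.98 over all 19917 transcripts.

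Of the thick filament genes, MYLPF (ENSBTAT00000028269) had 29288, 25610 and 29073 FPKM in buffalo 1, 2 and 3. It was the highest member in every library, with a mean log2 level of 14.77 ± 0.11 (SD, n = 3), and its coefficient of variation (CV, the SD over the mean) of 7.37% was the lowest of the 6 for FPKM as deposited. After division by the library's FPKM sum, ATP2A1 had the lowest CV with 6.12% and MYLPF had 9.26%. MYBPC2 (ENSBTAT00000026756) had 2206, 1746 and 2128 FPKM, and a mean log2 level of 10.98 ± 0.18 (SD, n = 3). Its lowest value was in buffalo 2, as was that of MYLPF.

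Of the thin filament genes, TNNI2 (ENSBTAT00000014452) had 5327, 3818 and 6265 FPKM, which put it second among the members with a mean log2 level of 12.30 ± 0.36 (SD, n = 3). TNNT3 (ENSBTAT00000029890, the transcript that the study pairs with this gene name) had 1553, 939 and 911 FPKM and a mean log2 level of 10.10 ± 0.43 (SD, n = 3). Buffalo 1 was high for this TNNT3 transcript and the other two libraries were close to each other, whereas for TNNI2 buffalo 3 was the highest.

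The Z-disc gene ACTN3 (ENSBTAT00000030030) had 1857, 1098 and 1784 FPKM, with a mean log2 level of 10.59 ± 0.42 (SD, n = 3). The calcium pump gene ATP2A1 (ENSBTAT00000008593) had 3391, 2751 and 3071 FPKM, with a mean log2 level of 11.58 ± 0.15 (SD, n = 3). ACTN3 was low in buffalo 2 and nearly equal in the other two libraries, and ATP2A1 spread evenly between its lowest value in buffalo 2 and its highest in buffalo 1.

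The order of the levels was MYLPF, TNNI2, ATP2A1, MYBPC2, ACTN3, TNNT3. MYLPF exceeded TNNI2 by 2.47 ± 0.27 on the log2 scale (SD of the within-library difference, n = 3), TNNI2 exceeded ATP2A1 by 0.72 ± 0.28, and ATP2A1 exceeded MYBPC2 by 0.60 ± 0.07. The values of neighbours did not overlap in these 3 steps. The values of MYBPC2 and ACTN3 overlapped (difference 0.39 ± 0.24), as did those of ACTN3 and TNNT3 (0.48 ± 0.42), although the first of each pair was higher in 3 of 3 libraries. These last 2 steps could not be told from the spread between libraries. The place of TNNT3 also depends on which of its transcripts are counted.

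**Figure D1:**
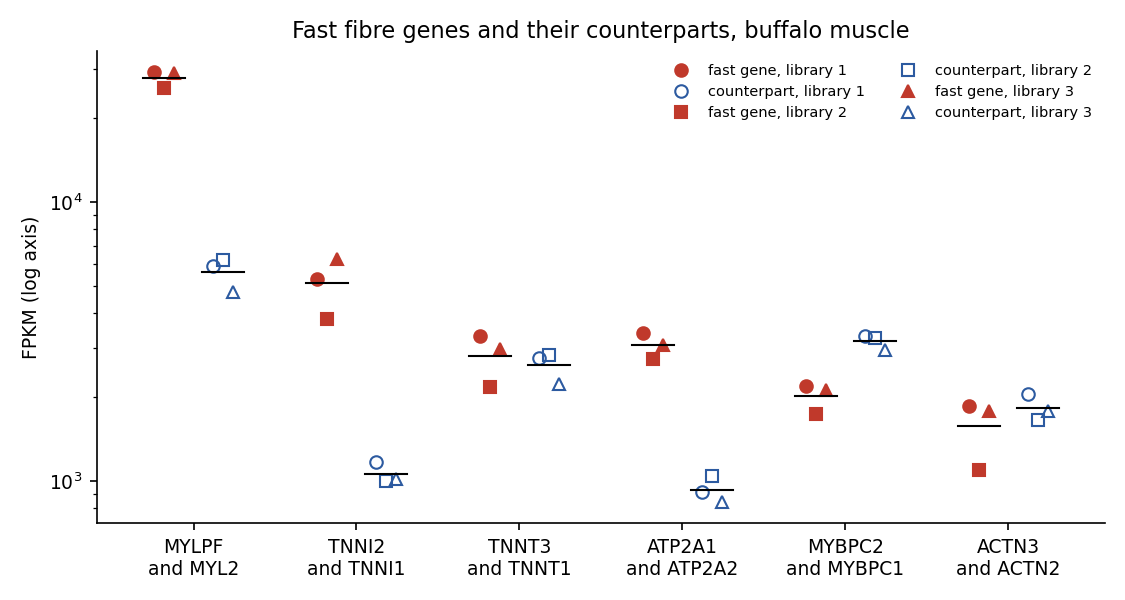
FPKM (log axis) of the 6 fast fibre genes (filled red) and their counterparts (open blue) in buffalo muscle, with the listed transcripts of a gene summed. Each marker is a library (circle 1, square 2, triangle 3) and each line is the mean of 3 libraries. MYLPF lies above every other gene drawn, and MYBPC2 lies below MYBPC1 in all 3 libraries.

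TNNT3 was the only member with more than 1 named transcript, and its transcripts did not move together. Names came only from the study's lists and from the circRNA tables. Further transcripts of other members, above all those without a circRNA, may therefore be present without a name. As background, TNNT3 pre-mRNA is spliced in many alternative ways in muscle, and its isoforms differ in the calcium response they give the thin filament. The table lists 5 Ensembl transcripts of it, and their sum of 3313, 2172 and 2989 FPKM in buffalo 1, 2 and 3 was lowest in buffalo 2. ENSBTAT00000029890 made up 46.9%, 43.2% and 30.5% of that sum, and ENSBTAT00000008422 made up 22.4%, 41.7% and 47.0%. Thus the first was the more abundant form in buffalo 1 and the second in buffalo 3.

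ENSBTAT00000064506 reached 520 FPKM in buffalo 1, or 15.7% of the sum, but 0.0254 and 0.000616 FPKM in buffalo 2 and 3. ENSBTAT00000064427 had 420, 295 and 657 FPKM, and ENSBTAT00000008371 had 76.1, 32.9 and 16.5 FPKM. The CV of the sum was 20.8%, below that of each of its 5 transcripts (32.0% to 173%). Reads of overlapping transcripts of 1 gene are divided by the authors' estimation, so the values of single TNNT3 transcripts are less certain than their sum.

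**Figure D2:**
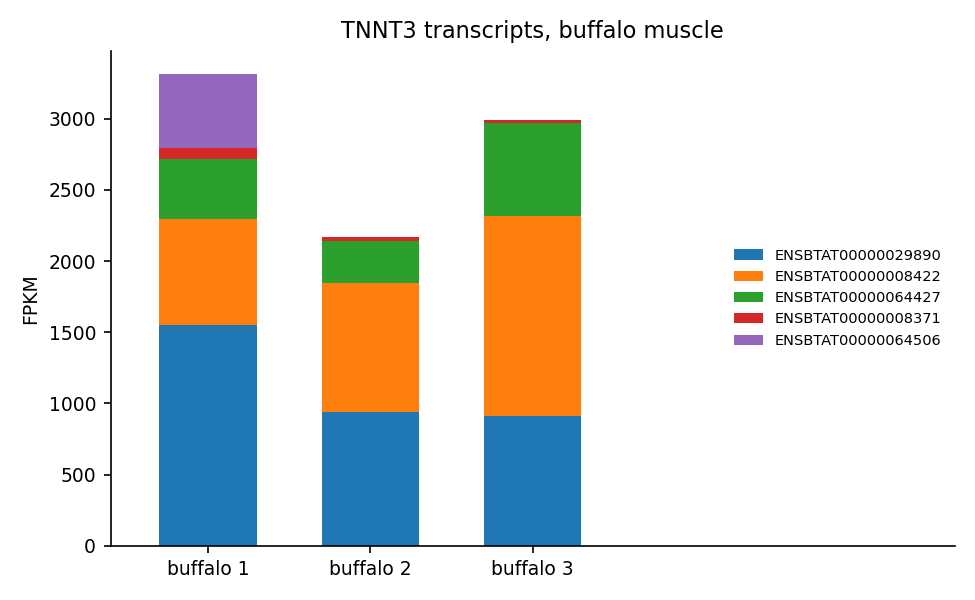
FPKM of the 5 listed TNNT3 transcripts, stacked, in each buffalo muscle library (linear axis from 0). The purple segment, ENSBTAT00000064506 at 520 FPKM, is seen in buffalo 1 alone, and the orange segment, ENSBTAT00000008422, is 743 FPKM in buffalo 1 and 1404 FPKM in buffalo 3.

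Buffalo 2 had the lowest value of 5 of the 6 members, and of all 6 when the TNNT3 transcripts were summed. Among the 12618 transcripts with a mean of at least 1 FPKM, 31.3% were lowest in buffalo 2, and among the 78 transcripts with a mean FPKM at least that of the lowest member, 46.2% were. When values were divided by the FPKM sum of the library, 4 of 6 members were lowest in buffalo 2, against 19.0% of the 12618 and 34.6% of the 78 transcripts, and MYLPF was then lowest in buffalo 1. The median CV of the members was 18.1%, close to the 15.2% of the 12618 and the 15.8% of the 78 transcripts. The summed level of the adipocyte genes was lowest in buffalo 1 and highest in buffalo 2. LPL, also made by muscle, had 92.0, 129 and 98.1 FPKM. ADIPOQ, which encodes the fat cell hormone adiponectin, had 0.776, 7.40 and 5.77 FPKM. PLIN4, with 52.6, 62.6 and 80.8 FPKM, was highest in buffalo 3, as were LIPE and PCK1, and the other measured genes of the list were highest in buffalo 2. Every measured gene of the list was lowest in buffalo 1. The part of the adipocyte genes in the levels of the fast fibre genes was not tested.

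Each fast gene was then set against its counterpart in the same library. ATP2A2, MYL2, TNNI1 and TNNT1 are the slow fibre copies, whereas MYBPC1 and ACTN2 are made in fast fibres too. The first 3 fast genes stood above their slow copies in every library. The ratio of MYLPF to MYL2, the slow light chain, was 4.95, 4.13 and 6.09 in buffalo 1, 2 and 3 (mean 5.06 ± 0.98, SD, n = 3). TNNI2 to TNNI1, the slow troponin I, gave 4.52, 3.82 and 6.17 (4.84 ± 1.21), and ATP2A1 to ATP2A2, the pump SERCA2 of slow fibres, gave 3.71, 2.64 and 3.63 (3.33 ± 0.60).

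The other 3 pairs lay near or below 1. MYBPC2 was lower than MYBPC1 in every library, with ratios of 0.665, 0.536 and 0.717 (0.639 ± 0.093, SD, n = 3). ACTN3 was lower than ACTN2 in every library, at 0.903, 0.662 and 0.996 (0.854 ± 0.173), although in buffalo 3 the levels were nearly equal. TNNT3 to TNNT1, the slow troponin T, gave 1.20, 0.762 and 1.34 with the listed transcripts of both genes summed (1.10 ± 0.30). With only the TNNT3 transcript that the study pairs with the name, the ratios were 0.561, 0.329 and 0.409, so the direction of this pair depends on the transcripts counted.

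Buffalo 2 had the lowest ratio in 6 of 6 pairs and buffalo 3 the highest in 5 of 6, the exception being ATP2A1 to ATP2A2, which was highest in buffalo 1. These counts are for summed transcripts, and with the single TNNT3 transcript the TNNT3 pair was also highest in buffalo 1. A ratio within a library does not depend on how the library was scaled. Of the counterparts, MYL2 had 5913, 6204 and 4776 FPKM and ATP2A2 had 913, 1044 and 846 FPKM, both highest in buffalo 2, as was TNNT1 with 2767, 2850 and 2226 FPKM. MYBPC1 with 3318, 3259 and 2968 FPKM was lowest in buffalo 3, whereas TNNI1 with 1177, 1001 and 1016 FPKM and ACTN2 with 2055, 1658 and 1791 FPKM were lowest in buffalo 2. In all, 4 of 6 counterparts were lowest in buffalo 3 and 2 in buffalo 2.

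**Figure D3:**
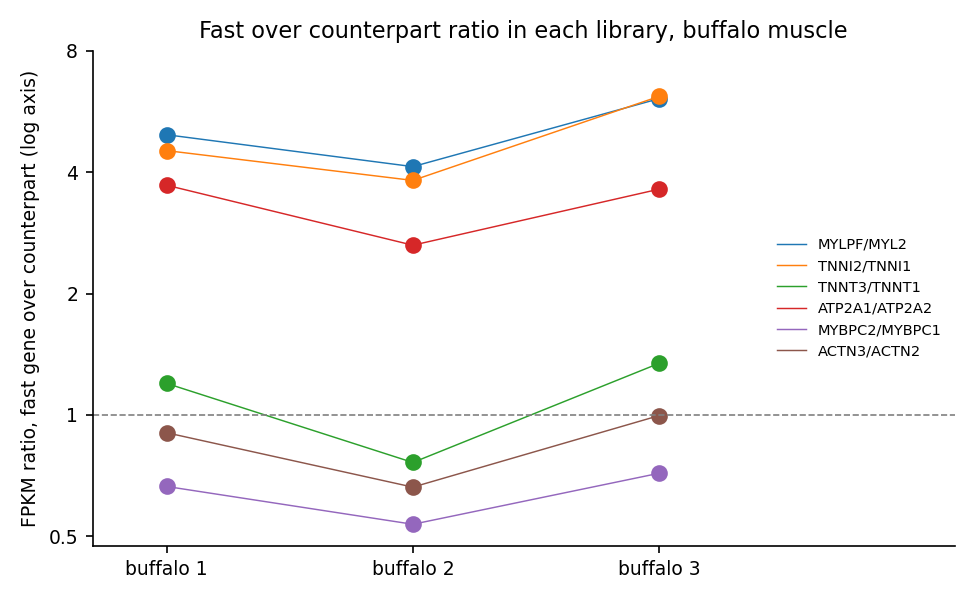
FPKM ratio of each fast gene to its counterpart in buffalo 1, 2 and 3 (log axis, listed transcripts of a gene summed). Each point is the ratio in 1 library, the lines join points of the same pair and the dashed line marks a ratio of 1. All 6 pairs dip in buffalo 2, and the MYLPF, TNNI2 and ATP2A1 pairs stay above 2.6 in every library.

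Across whole lists, the median of the 6 fast fibre transcripts exceeded the median of 10 slow fibre transcripts (9 of 12 listed genes), with 1 TNNT3 transcript but both TNNT1 transcripts counted, by 1.40, 1.10 and 1.46 on the log2 scale in buffalo 1, 2 and 3. The mean was 1.32 ± 0.19 (SD, n = 3), and it was 2.13 with list means in place of medians and 0.91 as the median of the 6 within-pair differences, so its size depends on the summary. The exact two-sided sign-flip permutation test gave p = 0.25, the smallest value that 3 libraries allow. With every listed transcript counted in both lists (10 fast transcripts, 5 of them of TNNT3), the differences were 0.71, -0.01 and 0.77, so the excess was not seen in buffalo 2, and the exact permutation p was 0.5. With the transcripts of each gene summed in both lists, they were 1.51, 1.23 and 1.58. The direction in 3 of 3 libraries therefore depends on how the TNNT3 transcripts are counted.

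The slow list had a median log2 level of 9.96 and ran from MYL2 at the top to CASQ2, the calcium store protein of slow and heart muscle, with 24.0, 9.45 and 14.0 FPKM. A list of 11 other fast fibre genes had 5 with a named transcript, and its median log2 level was 11.07. Its highest was ENO3, the muscle enolase, with 3178, 2766 and 3360 FPKM, and its lowest was MYH1, a fast myosin heavy chain, listed at 0 in all 3 libraries. Both transcripts of NEB, the giant thin filament protein nebulin that all fibres use, were listed at 0 as well, so a 0 in this table is read only as a listing. The sarcomere genes that fibre types share (8 of 12 with a named transcript) had a median of 9.39. The excitation-contraction coupling genes (6 of 9) had a median of 7.49, from the calcium release channel RYR1 with 960, 680 and 848 FPKM to the chloride channel CLCN1 with 64.1, 50.4 and 58.5 FPKM. Of the blood and vessel genes, 3 of 5 had a named transcript, with a median of 5.23. They ran from PECAM1 with 34.9, 40.5 and 44.8 FPKM to VWF with 12.6, 10.3 and 10.4 FPKM. A gene of a list without a name may still have a level that was not seen here, so these medians cover named transcripts only.

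For each member, the named transcript nearest in level over the 3 buffalo libraries was found by Euclidean distance of log2 values among 6807 named transcripts. This measure over 3 libraries mostly matches the height of the level. The nearest to ATP2A1 was PGAM2, the muscle phosphoglycerate mutase of glycolysis, at a distance of 0.08, the shortest of the 6. The nearest to MYBPC2 was CASQ1, the calcium store protein of fast fibres, at 0.21, and the nearest to TNNI2 was the tropomyosin gene TPM1 at 0.26. The TNNT3 transcript lay nearest to CSRP3, a muscle LIM protein, at 0.24. MYLPF lay nearest to MB, which encodes myoglobin, at 0.43, and ACTN3 lay nearest to the glycolytic gene TPI1 at 0.48.

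The circRNA tables give RPM (junction reads scaled to the library total), from which whole reads were recovered. Circular forms of the fast fibre genes were few, and ATP2A1 carried most of their junction reads. In buffalo muscle the members had 2 junctions with 45 reads, of which ATP2A1 had 44 and TNNT3 had 1. In cattle muscle they had 9 junctions with 30 reads, of which ATP2A1 had 24 over 5 junctions, TNNT3 had 4 over 2 and MYBPC2 had 2 over 2. In cattle adipose no member had a read. ACTN3, MYLPF and TNNI2 had no junction in any of the 9 libraries. A count of 0 in the buffalo libraries allows a share of up to 0.0189% of the 15890 junction reads of that group (3 reads over the group), 0.00465% of 64482 in cattle muscle and 0.00635% of 47255 in cattle adipose.

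A single ATP2A1 junction was found in both species. It spans chr25:26197133-26201081 on the minus strand of the cattle genome UMD3.1, a stretch of 3949 bases that the tables annotate as exonic and that was the only member junction seen in all 3 libraries of a group. It had 18, 11 and 15 reads in buffalo 1, 2 and 3, which is 0.274, 0.173 and 0.2499 RPM. In cattle muscle it had 3, 3 and 10 reads, or 0.0794, 0.0710 and 0.280 RPM, and in cattle adipose 0, 0 and 0 reads. Cattle muscle 3 was high and the other two cattle muscle libraries were low, so that the range of cattle muscle spanned that of buffalo muscle. The 3 reads of cattle muscle 1 and of cattle muscle 2 are no more than the limit that a count of 0 allows, so these libraries could not be told from adipose one by one.

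As a share of all junction reads, this junction took 0.340% in buffalo 1 (95% exact Clopper-Pearson interval 0.202% to 0.537%), 0.180% in buffalo 2 (0.0897% to 0.321%) and 0.335% in buffalo 3 (0.188% to 0.553%). In cattle muscle the shares were 0.0194% (0.00401% to 0.0568%), 0.0111% (0.00228% to 0.0323%) and 0.0457% (0.0219% to 0.0840%). Intervals and limits cover counting error only. The junction ranked 17, 46 and 20 among the circRNAs of buffalo 1, 2 and 3, and 776, 1469 and 267 among those of cattle muscle 1, 2 and 3. The tables of the species were made apart, so these values stand side by side and were not tested against each other. The RPM and the share order the species' libraries differently for cattle muscle 3, and the cattle libraries listed 408 to 642 RPM of circRNA in muscle and the buffalo libraries 74.5 to 96.1 RPM.

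**Figure D4:**
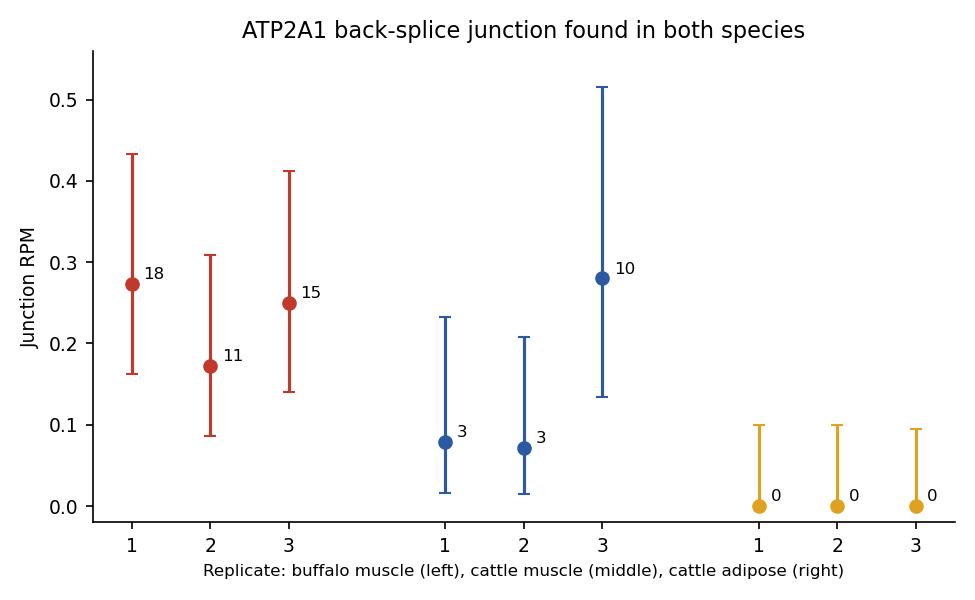
RPM of the ATP2A1 junction shared by both species in each of 9 libraries. Points are libraries, bars are 95% exact intervals of counting error, and numbers beside points are junction reads. The 3 adipose libraries sit at 0 reads, and cattle muscle 3 (10 reads) lies above cattle muscle 1 and 2 (3 reads each).

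The other member junctions were thin. Of the 9 junctions in cattle muscle, 7 were seen in 1 library only and 5 rested on 1 read. Besides the shared junction, ATP2A1 had 4 more in cattle muscle, the shortest of 519 bases starting at the same base as the shared junction and the longest of 14003 bases, annotated as running from exon to intron. The 2 MYBPC2 junctions, on chromosome 18, ended at the same base. TNNT3, on chromosome 29, had 1 intronic junction of 1141 bases and 1 exonic junction of 8531 bases in cattle, and its 1 buffalo junction was a different one of 1196 bases that the cattle table does not list.

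Circular and linear abundance did not run in parallel among the members. MYLPF, with the highest mRNA level in buffalo muscle, had no junction read, and TNNI2, the next highest, had none either. ATP2A1 gave 0.0807, 0.0628 and 0.0814 RPM of junction reads per 1000 FPKM of its mRNA in buffalo 1, 2 and 3. Among the 78 transcripts at least as high as the lowest member, 13 (16.7%) had a junction of the same transcript in buffalo muscle. The share was 15.5% of transcripts from 1 to 10 FPKM, 24.5% from 10 to 100 FPKM and 18.4% from 100 FPKM up to the lowest member. Of those 13, ATP2A1 was second by reads, after MYBPC1 with 246.

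Of the counterparts, MYBPC1 carried most junction reads. It had 22 junctions with 85, 100 and 61 reads in buffalo muscle and 47 junctions with 293, 389 and 412 reads in cattle muscle. MYBPC2 had no read in buffalo muscle, and MYBPC1 was 82.0-fold higher there when its reads as counted are set against 3 reads over the group. For the calcium pumps in buffalo muscle, the fast gene had more, with 18, 11 and 15 reads for ATP2A1 and 0, 6 and 1 for ATP2A2. In cattle muscle ATP2A1 had 4, 6 and 14 reads and ATP2A2 13, 12 and 17, with ATP2A2 higher in 3 of 3 libraries. TNNT1 had 5, 1 and 0 reads in cattle muscle against 1, 3 and 0 for TNNT3, and ACTN2 had 5, 5 and 1 while ACTN3 had none. MYL2 and TNNI1 had no junction, like MYLPF and TNNI2. Summed over the pairs, members and counterparts had 45 and 257 reads in buffalo muscle, and 30 and 1153 in cattle muscle.

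**Figure D5:**
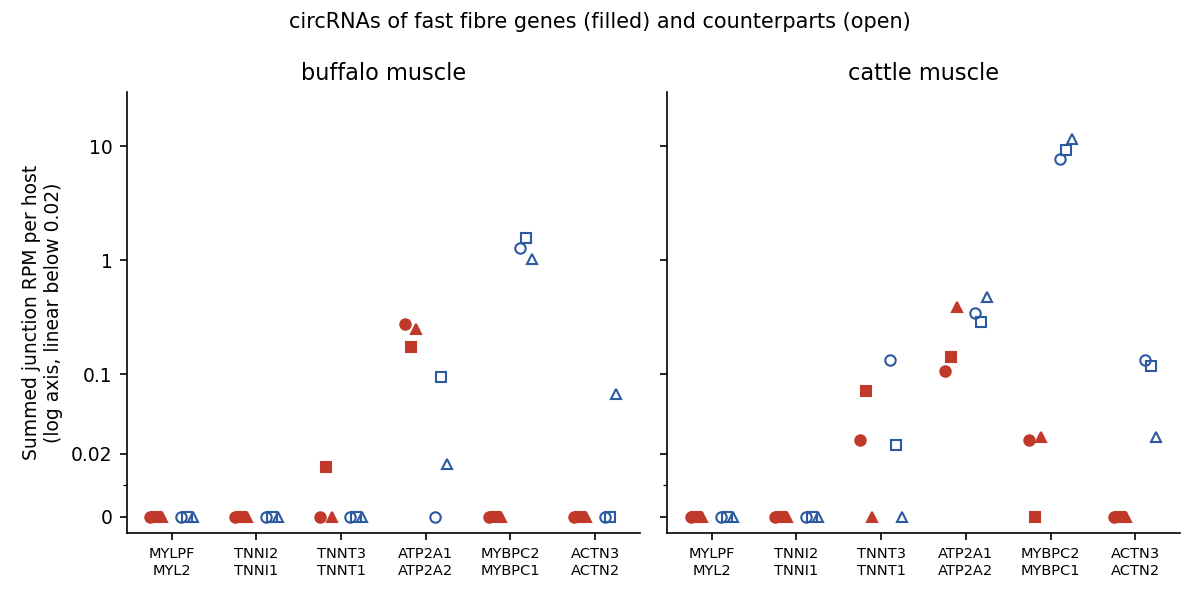
RPM of all junctions of a host gene, summed, for the 6 fast fibre genes (filled red, upper name) and their counterparts (open blue, lower name) in buffalo muscle and cattle muscle (log axis, linear below 0.02). Each marker is a library. MYBPC1 lies highest in both panels (up to 1.57 RPM in buffalo and 11.5 RPM in cattle), and MYLPF, TNNI2 and ACTN3 lie at 0.

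The cattle libraries allow a test of muscle against adipose. Summed over its junctions, ATP2A1 had 0.106, 0.142 and 0.392 RPM in cattle muscle and 0 in each adipose library. With adipose set at 3 reads over the group, muscle was 7.80-fold higher, and 4.70-fold higher without cattle muscle 3, which held 14 of the 24 reads. These folds take the muscle reads as counted, so they are no lower bounds. On log2(RPM + 1), the difference was 0.27 (SE 0.09), and limma gave an adjusted p = 0.0452 over 1830 host genes. Of these hosts, 5.68% were called at an adjusted p of 0.05 and 4.37% were called higher in muscle, ATP2A1 among them. The 104 hosts called became 59 without cattle muscle 2, 34 without cattle muscle 3, 44 without cattle adipose 1 and 48 without cattle adipose 3, over the same 1830 hosts. ATP2A1 entered the test through its muscle reads alone, so it had to differ. Adjusted p was 0.0406 without a filter (limma, 4724 hosts) and 0.0176 with a pseudocount of 0.1 (limma). It was 0.00315 with edgeR and TMM, 0.00680 with edgeR without TMM, and 0.0110 with DESeq2. These fits use the same reads, with 0 in adipose, so they add no support for the call. The call was lost in 5 of the 6 fits that left out 1 library with the hosts tested kept the same. Adjusted p was then 0.0287 without cattle muscle 1, and 0.0687 and 0.0670 without cattle muscle 2 and 3 (limma). Without cattle adipose 1, 2 and 3 it was 0.211, 0.137 and 0.203 (limma). Without cattle muscle 3 the difference was 0.17.

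Taken alone, the shared ATP2A1 junction differed by 0.19 (SE 0.07) on log2(RPM + 1) between muscle and adipose, with an adjusted p = 0.134 by limma over 1917 circRNAs, of which 3.39% were called and 3.18% were called higher in muscle. The 65 circRNAs called became 26 and 22 without cattle muscle 2 and 3, and 36, 38 and 10 without cattle adipose 1, 2 and 3. Without cattle muscle 3, which held 10 of its 16 reads, the difference was 0.10. By the same limit of 3 reads in adipose, the junction was 5.20-fold higher in muscle, and 2.82-fold higher without cattle muscle 3. Here too the muscle reads are taken as counted. Like the host sum, the junction entered the test through its muscle reads alone, so the direction was fixed by the filter. The adjusted p was 0.0318 with edgeR after TMM scaling, 0.0504 with edgeR without it and 0.0545 with DESeq2. MYBPC2 with 1, 0 and 1 reads and TNNT3 with 1, 3 and 0 reads in cattle muscle were too thin for the filter. Without a filter their hosts differed by 0.03 (SE 0.02) and 0.05 (SE 0.03), each with an adjusted p = 0.654 by limma, so a difference was not detectable at this depth.

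Other muscle lists were set beside the members in the same libraries. Other fast fibre genes summed to between 5.13 and 6.81 RPM in cattle muscle and to 0 in adipose, led by MYL1, the fast essential light chain. In buffalo muscle they summed to between 0.126 and 0.350 RPM, which overlaps the members there. Slow fibre genes summed to between 8.52 and 13.3 RPM against 0, and to between 1.03 and 1.73 RPM in buffalo muscle. Most of this was MYBPC1, which is also made in fast fibres, with a mean of 9.50 RPM in cattle muscle and 1.29 RPM in buffalo muscle. The fast fibre members summed to between 0.159 and 0.420 RPM in cattle muscle, and to between 0.188 and 0.274 RPM in buffalo muscle. Sarcomere genes shared by fibre types summed to between 16.7 and 24.2 RPM in cattle muscle and between 0.0543 and 0.215 RPM in adipose, and adipocyte genes to between 0 and 0.159 RPM in cattle muscle and between 0.0814 and 0.283 RPM in adipose.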

How the data were processed

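Total RNA of 9 libraries (3 per group, grouped by the labels) was sequenced by the authors. After trimming (Trim Galore), STAR placed reads of both species on cattle UMD3.1, and Cufflinks 2.2.1 and Cuffdiff gave transcripts and levels. As deposited, mRNA values are FPKM and circRNA values are RPM, both computed by the authors. The circRNA caller is not given in the sources used here. Buffalo and cattle tables were made apart, so no test was made between species. In total, 6 columns of no listed sample, 3 of them in the mRNA table, were not used. Buffalo back fat was not analysed, so member mRNA was not compared between muscle and fat. The lncRNA table was not used.

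Members were matched by symbol. The mRNA names came from the study's lists of mRNAs called different between buffalo and cattle muscle, and from the circRNA tables (6807 of 19917 transcripts). List medians and nearest transcripts therefore rest on named transcripts, which are not a neutral choice from all transcripts. The reference ARS-UCD2.0 gave names and neighbours only, and all 6 members matched in it. RPM values of every circRNA column were whole multiples of 1 read (100% within 0.01 reads), which gave the junction reads. Levels were taken as log2(FPKM + 1). Host sums and circRNAs with at least 2 reads in at least 3 of the 6 cattle libraries were tested with limma 3.58.1 on log2(RPM + 1), with Benjamini-Hochberg adjustment. edgeR 4.0.16 and DESeq2 1.42.0 served as alternatives on recovered reads, and the fits were tested on simulated data. Fold changes on a log2(value + 1) scale understate changes of low values. Computations used R 4.3.3 and Python 3.11.15.

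Genes were named by rule: the 6 members, member circRNAs read in all 3 libraries of a group (others by counts), the highest and lowest measured gene of each list, and the nearest transcript to each member. Counterparts, and ADIPOQ, PLIN4, LIPE, MYL1, NEB and ACTN2, were named outside it, after values had been seen. The members and lists were chosen with earlier results of these data known. The replicate numbers are not stated to mark the same animals in both tissues, and a check of same-numbered libraries did not settle it. The main fits therefore used no block, and a block on the number was fitted as an alternative.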

Additional observations from a re-analysis of the deposited data

How the results depend on the processing

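Dividing by the library sum without its 10 highest transcripts raised the median member level to 12.05 (MYLPF 15.54, TNNI2 13.07, ATP2A1 12.35, MYBPC2 11.75, ACTN3 11.36, TNNT3 10.87), which adds the same amount to every member. The median percentile of 99.69 became 99.81 over all listed transcripts and 99.75 with the TNNT3 transcripts summed, the latter chosen after seeing the data. The excess of fast over slow genes of 1.32 kept the direction of its mean in 8 of 8 alternatives (p = 0.25 to 0.5 by the exact permutation test), but was 2.13 with list means and, in alternatives chosen after seeing the data, 0.91 as the median of the 6 within-pair differences, 1.44 with transcripts summed per gene and 0.49 with every listed transcript counted, where buffalo 2 was at -0.01. With at least 2 reads, 1 member junction was left in buffalo muscle and 4 in cattle muscle. Leaving out a library left 1 to 2 and 6 to 7 of them, with 1 without buffalo 2. The 104 hosts called became 164 with edgeR and TMM and 30 to 104 without a library. The 65 circRNAs called became 27 with no filter, 120 with at least 5 reads, 163 with edgeR and TMM, 113 without TMM factors, 129 with DESeq2 and 10 to 87 without a library. For the ATP2A1 host the difference was 0.17 to 0.33 without a library, and adjusted p over 15 alternatives ran from 0.00315 to 0.211. For the junction, edgeR with TMM fitted 5.42, which is no bound since adipose was at 0, and adjusted p ran from 0.0318 to 0.370 over 15 alternatives. Keeping the tested features when leaving out a library, and the folds without cattle muscle 3, were chosen after seeing the data. With the original filter, ATP2A1 dropped out whenever a cattle muscle library did, and with at least 5 reads it had no value. The causes were not tested, apart from fewer samples or features by construction.

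With the replicate number as a block, 145 hosts and 123 circRNAs were called, and the ATP2A1 host had an adjusted p = 0.0262 (limma). Deviations of same-numbered cattle muscle and adipose libraries correlated across 1830 hosts at 0.21, 0.18 and -0.02 for numbers 1, 2 and 3. The correlation was -0.22 for muscle 1 with adipose 2 and -0.18 for muscle 2 with adipose 1. The check therefore did not settle whether the numbers pair the samples.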

Other observations

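NEB, which encodes nebulin and is listed at 0 FPKM for both of its transcripts in all 3 buffalo muscle libraries, was the leading circRNA host of the shared sarcomere genes in the same libraries, with a mean of 11.0 RPM of junction reads (19.4 RPM in cattle muscle). It is named because its values stood apart from those of the other genes in the lists. MYL1, of the other fast fibre genes, had a mean of 0.198 RPM in buffalo muscle and 5.55 RPM in cattle muscle, whereas ATP2A1 had 0.232 and 0.213 RPM. These values come from tables made apart, and the difference between species was not tested.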
